A study of Mus musculus with 18 samples.

Results

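The enzymes that carry acetyl-CoA through mevalonate to squalene are described here across 18 livers, each from a male mouse of the inbred strain C57BL/6J that had reached 62 weeks of age. The members are a list of gene symbols, chosen with earlier results of these data known: Acat2, Hmgcs1, Mvk, Pmvk, Mvd, Idi1, Fdps and Fdft1. Of these 8 genes, 7 have a probe set listed under their symbol alone, out of 18193 such genes on the array, and Acat2 is not analysed here. The 7 genes have 18 probe sets in all, of which 16 were bright enough to be tested.

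Each mouse gave 1 Affymetrix Mouse Genome 430 2.0 array, a chip on which each transcript is read by sets of short probes, and each group held 3 mice. From 5 weeks of age LF mice ate a 10% fat diet (D12450B) and HF mice a 60% fat diet (D12492), both without limit. LF+CR and HF+CR mice ate the same diets under 30% calorie restriction, with amounts set from the intake of the LF and HF mice, and LF+Ex and HF+Ex mice ate without limit and had a running wheel they could use freely. The mice were housed singly. The labels give no genetic change, and neither the hour of sampling nor the fed state at sampling is given in the sources used here.

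Cholesterol and all isoprenoids are built from acetyl-CoA by the mevalonate pathway. Acetyl-CoA units are joined into HMG-CoA, which is turned into mevalonate, and mevalonate is then phosphorylated, decarboxylated and assembled into farnesyl diphosphate. Farnesyl diphosphate is a branch point: squalene synthase commits it to sterols, while other enzymes use it for dolichol, ubiquinone and the prenylation of proteins. In liver the genes of this route are targets of the transcription factor SREBP-2, which is held back when sterols in the endoplasmic reticulum are plentiful and acts together with the factors NF-Y and Sp1.

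Promoters are shown as a description, being the sequences in which a sterol regulatory element would lie close to the start. Their part in how the members moved across the arrays was not tested. RefSeq promoter sequences (GRCm38.p6) were matched by symbol for 6 of the 8 members, 7 promoters in all, with 2 for Pmvk. The 250 bases before the start are printed 5′ to 3′ on the strand of the gene for 5 of the measured members, for Pmvk the first of its promoters. Capitals mark TCACNCCAC or CACNCCAC, written after the sterol regulatory element, and CCAAT, the box bound by NF-Y, on either strand (ATTGG is CCAAT on the other strand).
Hmgcs1 (chr13:119690101-119690350, plus strand): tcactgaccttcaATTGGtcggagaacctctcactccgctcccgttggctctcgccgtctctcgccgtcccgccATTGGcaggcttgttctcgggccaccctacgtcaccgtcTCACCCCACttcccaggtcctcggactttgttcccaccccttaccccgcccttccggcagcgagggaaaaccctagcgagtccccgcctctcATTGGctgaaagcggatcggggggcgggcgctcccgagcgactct
Mvk (chr5:114444019-114444268, plus strand): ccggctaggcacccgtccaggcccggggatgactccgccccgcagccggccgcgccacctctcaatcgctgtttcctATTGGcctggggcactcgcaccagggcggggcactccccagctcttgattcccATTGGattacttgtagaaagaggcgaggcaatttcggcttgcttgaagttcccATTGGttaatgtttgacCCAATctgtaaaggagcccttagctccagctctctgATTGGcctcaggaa
Pmvk (chr3:89454291-89454540, plus strand): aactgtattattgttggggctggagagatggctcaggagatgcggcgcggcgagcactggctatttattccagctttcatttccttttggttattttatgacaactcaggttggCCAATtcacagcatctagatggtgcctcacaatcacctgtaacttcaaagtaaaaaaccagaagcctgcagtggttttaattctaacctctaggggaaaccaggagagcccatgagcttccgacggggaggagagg
Mvd (chr8:122443423-122443672, minus strand): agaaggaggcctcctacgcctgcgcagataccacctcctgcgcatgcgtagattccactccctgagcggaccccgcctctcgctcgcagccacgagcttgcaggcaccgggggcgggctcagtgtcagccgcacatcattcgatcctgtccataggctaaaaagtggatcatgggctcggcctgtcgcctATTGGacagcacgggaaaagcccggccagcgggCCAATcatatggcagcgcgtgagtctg
Idi1 (chr13:8885356-8885605, plus strand): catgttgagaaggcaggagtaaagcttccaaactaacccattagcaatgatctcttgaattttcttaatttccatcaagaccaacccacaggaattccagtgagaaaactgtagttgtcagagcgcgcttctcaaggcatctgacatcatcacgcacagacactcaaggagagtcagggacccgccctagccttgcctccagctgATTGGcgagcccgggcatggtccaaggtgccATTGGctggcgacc

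The search covered 250 bases before and 50 bases after each start, on both strands. Positions give the leftmost base of a match, with -1 as the last base before the start. TCACNCCAC was found in 1 member, Hmgcs1, at -137, and in 1.24% of all 32851 promoters of that length. The shorter CACNCCAC, which lies inside it, was found in 2 members, Hmgcs1 and Acat2, and in 6.24% of all promoters. CCAAT was found in 5 members (37.4% of all promoters), and Mvk alone held 5 matches, at -173, -120, -67, -50 and -14. GGGCGG, the core of the box bound by Sp1, was found in 5 members (35.7% of all promoters) and is not marked. In the Idi1 promoter CCAAT matches stood at -45 and -14, and in the Mvd promoter at -60 and -27. A match is a description of these letters and not a site shown to be bound, and a missing match says only that these letters were not in this window.

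Across the series, intensities ran from 31.08 to 21653.94, and the mean of an array lay between 304.9 and 307.8. Summed intensities of 8 hepatocyte markers lay between 68433 and 76747 in every group, and none of these markers was dim. The brightest, Alb, Apoa1 and Ttr, weigh most in this sum. Single markers varied more, as did Apob (2638 to 8257 over the arrays) and Tat (2109 to 5175). On 4 arrays (LF 1, LF+CR 1, LF+Ex 3 and HF+Ex 1) Clps, a pancreatic transcript, read 215 to 599, against 52.6 to 62.1 on the others. The 3 arrays LF+CR 2, HF 1 and HF+Ex 3 stood farthest out on the first principal component.

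**Figure D1:**
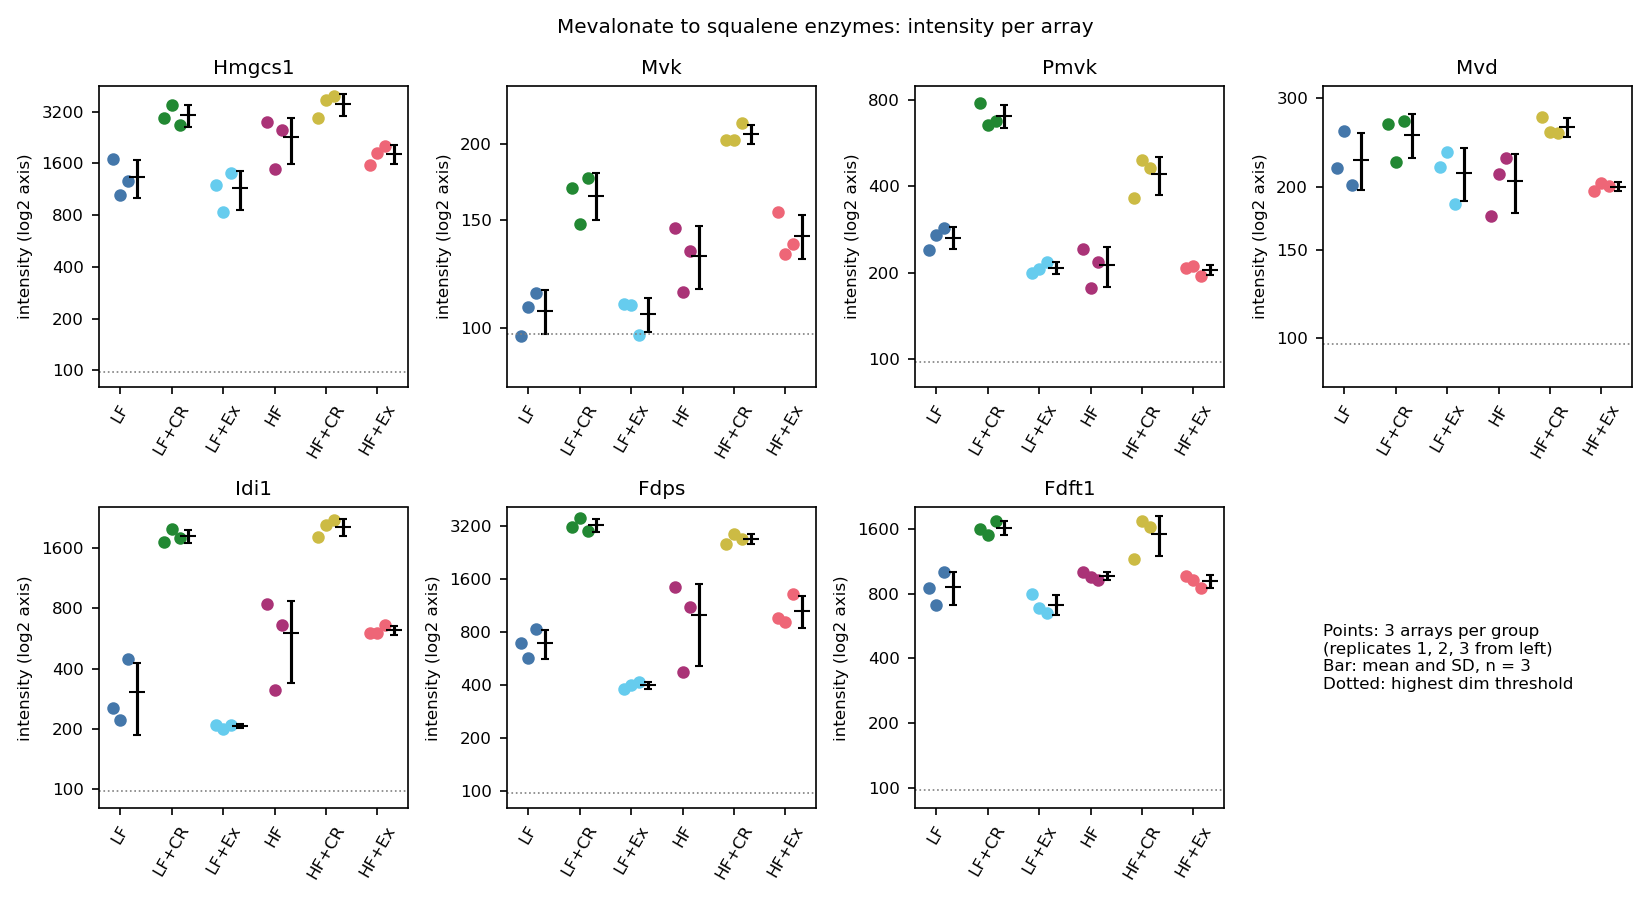
Intensity (log2 axis) of the 7 measured enzyme genes on each array, by group; points are the 3 arrays of a group, the bar beside them is the mean ± SD, and the dotted line is the highest dim threshold (97.6). The LF+CR and HF+CR points are the highest for Pmvk, Idi1, Fdps and Fdft1, and the Mvd points lie within a narrow range.

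Hmgcs1 encodes the cytosolic HMG-CoA synthase, which makes HMG-CoA for mevalonate. Its chosen probe set, 1433445_x_at, read 1697, 1051 and 1265 in LF, 2957, 3522 and 2679 in LF+CR, and 1191, 834 and 1415 in LF+Ex. The high-fat arrays read 2787, 1493 and 2514 in HF, 2953, 3743 and 3926 in HF+CR, and 1571, 1845 and 2024 in HF+Ex. In order of their means the groups ran LF+Ex, LF, HF+Ex, HF, LF+CR and HF+CR, and every neighbour in that order overlapped the next. All LF+CR arrays were above all LF arrays, and all HF+CR arrays were above all HF arrays, though HF 1 came close to the lowest of them.

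Mvk encodes mevalonate kinase, the first phosphorylation of mevalonate. Its chosen probe set, 1418052_at, was faint and read 96.8, 108 and 114 in LF, 169, 148 and 176 in LF+CR, and 109, 109 and 97.4 in LF+Ex. It read 146, 115 and 133 in HF, 203, 203 and 216 in HF+CR, and 155, 132 and 137 in HF+Ex. HF+CR stood alone at the top, above the highest LF+CR array, and LF and LF+Ex lay together at the bottom, just above the 40th percentile of the arrays (88.2 to 97.6), below which a probe set counts as dim here.

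Pmvk encodes phosphomevalonate kinase, which adds the second phosphate. Its only probe set, 1427893_a_at, read 239, 269.9 and 286 in LF, 778, 654 and 678 in LF+CR, and 199, 205 and 219 in LF+Ex. The high-fat arrays read 243, 176 and 219 in HF, 365, 494 and 463 in HF+CR, and 207, 210.3 and 195 in HF+Ex. The groups formed a ladder of 3 levels without overlap: LF+CR highest, HF+CR below it, and the unrestricted groups beneath, where HF+Ex, LF+Ex, HF and LF each overlapped their neighbour.

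Mvd encodes mevalonate diphosphate decarboxylase, which yields isopentenyl diphosphate. Its brighter probe set, 1417303_at, which represents the gene in the counts, read 218, 259 and 202 in LF, 267, 224 and 271 in LF+CR, and 219.5, 235 and 185 in LF+Ex. It read 175, 212 and 228 in HF, 276, 258 and 256 in HF+CR, and 196, 204 and 201 in HF+Ex. HF+CR lay above HF, LF+CR overlapped LF, every neighbour in the order of the means overlapped the next, and the brightest of the 18 arrays exceeded the dimmest 1.58-fold. The other probe set, 1448663_s_at, gave another picture: it read 78.0, 76.1 and 83.2 in LF, 176, 148 and 174 in LF+CR, 111, 79.4 and 89.1 in HF, and 126, 165 and 182 in HF+CR. On it both restricted groups stood clear of their controls, whose means (79.1 ± 3.66 in LF and 93.2 ± 16.3 in HF, SD, n = 3) lay under the highest dim threshold of 97.6.

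Idi1 encodes isopentenyl diphosphate isomerase, which makes dimethylallyl diphosphate. Its chosen probe set, 1451122_at, read 253, 222 and 446 in LF, 1721, 1997 and 1801 in LF+CR, and 209, 201 and 209.8 in LF+Ex. It read 837, 314 and 660.1 in HF, 1823, 2087 and 2222 in HF+CR, and 601, 603 and 659 in HF+Ex. The lowest restricted array was far above the highest unrestricted one, and the 18 arrays spanned 11.1-fold. The spread within a group differed widely, from a coefficient of variation of 2.45% in LF+Ex to 44.1% in HF, where HF 2 was low.

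Fdps encodes farnesyl diphosphate synthase. Its chosen probe set, 1423418_at, read 688, 566 and 826 in LF, 3156, 3523 and 2998 in LF+CR, and 379, 402 and 415 in LF+Ex. It read 1431, 471 and 1106 in HF, 2522, 2866 and 2681 in HF+CR, and 955, 909 and 1305 in HF+Ex. LF+CR was highest on all 3 arrays, HF+CR came next without overlap, and LF+Ex lay below every other array. As for Idi1, HF 2 was the lowest HF array, and for Fdps it was also below all LF arrays. The second Fdps probe set, 1438150_at, had group means of 81.8 to 94.9, all under the highest dim threshold, and did not pass in either restriction comparison.

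Fdft1 encodes squalene synthase, which joins farnesyl diphosphate units into squalene. Its chosen probe set, 1438322_x_at, read 850.3, 711 and 1014 in LF, 1597, 1505 and 1751 in LF+CR, and 799, 686 and 651 in LF+Ex. It read 1007, 960.45 and 925 in HF, 1157, 1752 and 1636 in HF+CR, and 966, 926 and 847 in HF+Ex. Both restricted groups lay above all unrestricted arrays, HF+CR with 1 low array, HF+CR 1. HF, HF+Ex, LF and LF+Ex each overlapped their neighbour in the order of the means.

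Calorie restriction on the low-fat diet raised 6 of the 7 enzyme genes, that is all but Mvd on its brighter probe set. Differences are log2 fold changes of the intensity plus 16, SE is the moderated standard error of limma, and a gene passed at a Benjamini-Hochberg adjusted p under 0.05 over all 14201 genes tested. Among all these genes 2.3% passed as higher in LF+CR, and the median difference was 1.20 for the 7 members against -0.01 for all genes. The median is given as a description, since the members were not drawn at random.

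Idi1 rose most, 5.98-fold, from 307 ± 122 to 1839 ± 142 (SD, n = 3; log2 difference 2.58, SE 0.27, adjusted p = 4.127e-05). Fdps rose 4.61-fold, from 693 ± 129.8 to 3226 ± 269 (log2 difference 2.21, SE 0.27, adjusted p = 0.0002001). Pmvk rose 2.56-fold, from 265 ± 23.8 to 703 ± 65.7 (log2 difference 1.36, SE 0.11, adjusted p = 8.606e-06). Among the 14201 genes ranked by their log2 difference, Idi1 stood 3rd, Fdps 7th and Pmvk 27th.

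Hmgcs1 rose 2.30-fold, from 1338 ± 329.5 to 3053 ± 429 (log2 difference 1.20, SE 0.23, adjusted p = 0.006105). Fdft1 rose 1.88-fold, from 858 ± 152 to 1618 ± 125 (log2 difference 0.91, SE 0.14, adjusted p = 0.001138). Mvk rose 1.47-fold, from 106 ± 8.79 to 164 ± 14.5 (log2 difference 0.56, SE 0.09, adjusted p = 0.001239). These 6 genes also passed in each of the 32 alternative fits that cover them. Mvd differed by 0.16 on 1417303_at (226 ± 29.4 in LF, 254 ± 25.7 in LF+CR, adjusted p = 0.4872), while 1448663_s_at rose by 0.94 (adjusted p = 0.0001501). With LF values so near the dim threshold, the size of the change on 1448663_s_at depended on the offset, from 1.06 with an offset of 1 to 0.69 with an offset of 64.

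Read by probe set, 14 of the 16 tested rose in LF+CR, against 2.28% of the 24481 tested on the array. The 4 tested Hmgcs1 probe sets rose by 1.18 to 1.42, the Idi1 pair by 2.55 and 2.58, the Mvk pair by 0.45 and 0.56, and the 3 of Fdft1 by 0.39 to 0.99. The smallest Fdft1 value came from 1438919_x_at, the faintest of the 3, with an LF mean of 114 ± 5.73. Liver tissue was measured whole, so that more RNA per cell and more cells of a type cannot be told apart. Of the cell type markers listed, those that passed were Alas2 of red blood cells, lower in LF+CR (408 against 891 in LF), and the hepatocyte genes Tat and Cps1 (higher) and F9 (lower); their part in the result was not tested.

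**Figure D2:**
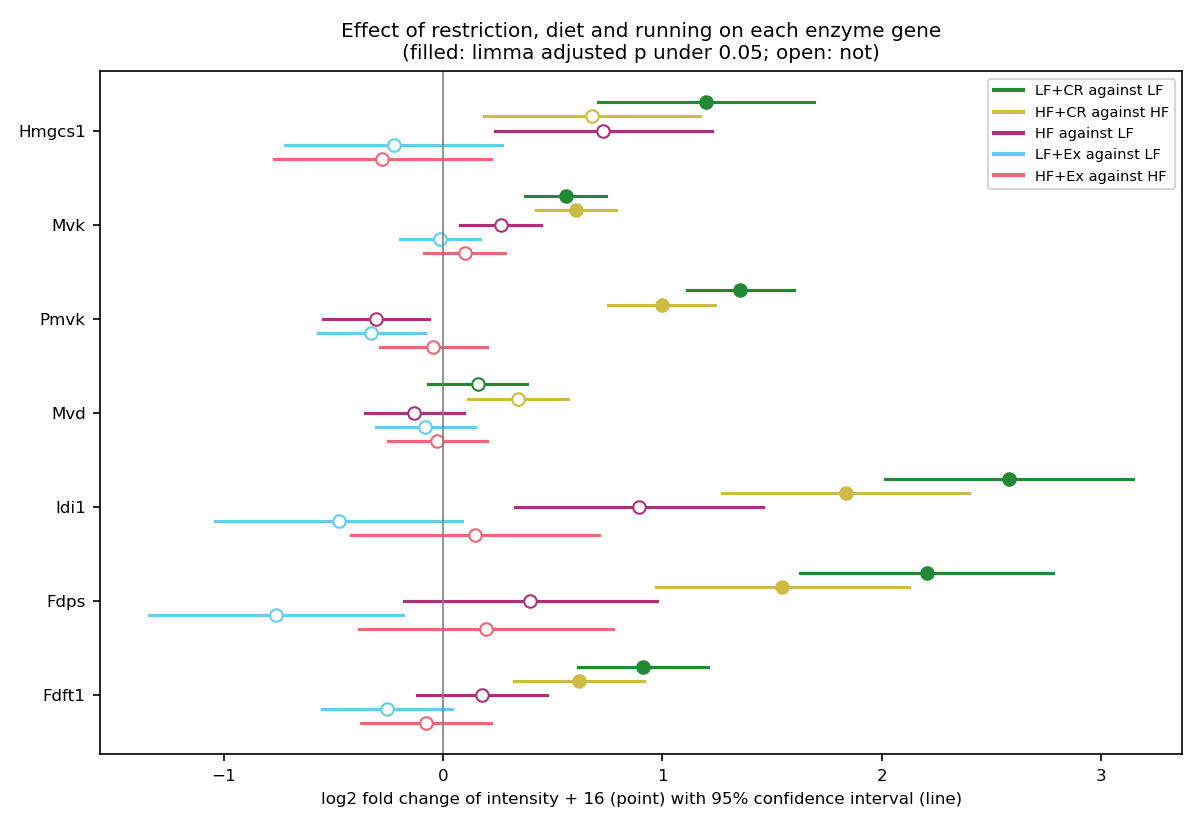
Log2 fold change of intensity plus 16 (point) with 95% confidence interval (line) for each gene in 5 comparisons; filled points passed limma at an adjusted p under 0.05. The Idi1 point lies farthest right in both restriction comparisons (2.58 in LF+CR and 1.84 in HF+CR), and no diet or running point is filled.

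On the high-fat diet restriction raised 5 of the 7 genes, where 3.52% of all genes passed as higher in HF+CR: Idi1, Fdps, Pmvk, Fdft1 and Mvk. All 7 genes were higher on every HF+CR array than on every HF array, which held for 17.9% of all genes tested. The median difference was 0.68 for the members against 0.04 for all genes.

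Idi1 rose 3.57-fold, from 604 ± 266 to 2044 ± 203 (log2 difference 1.84, SE 0.27, adjusted p = 0.001309). Fdps rose 2.92-fold, from 1003 ± 488 to 2690 ± 172 (log2 difference 1.55, SE 0.27, adjusted p = 0.004438). Pmvk rose 2.00-fold, from 213 ± 33.6 to 441 ± 67.6 (log2 difference 1.00, SE 0.11, adjusted p = 0.0002201). For Idi1 and Fdps the large SD in HF came from HF 2.

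Mvk rose 1.52-fold, from 131 ± 15.6 to 207 ± 7.77 (log2 difference 0.61, SE 0.09, adjusted p = 0.001181). Fdft1 rose 1.54-fold, from 964 ± 40.9 to 1515 ± 315 (log2 difference 0.62, SE 0.14, adjusted p = 0.01787), but its adjusted p rose to 0.05101 when HF 1 was left out, to 0.06256 when HF 3 was, to 0.08786 when HF+CR 2 was and to 0.0515 when the 4 arrays with pancreatic transcripts were. Hmgcs1 missed the threshold on its chosen probe set, with 2265 ± 682 in HF and 3541 ± 517 in HF+CR (log2 difference 0.68, 95% confidence interval 0.19 to 1.17, adjusted p = 0.09263). Its probe sets 1433443_a_at and 1433446_at passed narrowly, by 0.94 and 0.96 (adjusted p = 0.04594 and 0.04697), and 1433444_at did not (0.63, adjusted p = 0.1111). Mvd differed by 0.34 on 1417303_at (adjusted p = 0.06946) and rose by 0.67 on 1448663_s_at (adjusted p = 0.004292). In all, 12 of the 16 probe sets rose, against 2.81% of all probe sets.

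Beside this comparison, 1 of 8 pancreatic acinar markers passed: Cela1, an elastase, read 1617, 1233 and 1827 in HF+CR against 412, 417 and 452 in HF. The summed level of the 8 markers was 2201 to 2763 in HF+CR and 1293 to 1345 in HF, and Clps stayed at 57.7 to 61.8 in HF+CR. Of 8 Kupffer cell markers 0 passed in limma and 5 had an unadjusted p under 0.05 (25.5% of all genes), with a median difference of -0.54 and summed levels of 5391 to 6513 in HF+CR and 6839 to 10302 in HF. Lyve1, of 7 endothelial markers, was lower (147 against 332), and the red blood cell markers Alas2 and Slc4a1 were higher. The hepatocyte genes Tat (4335 against 2432) and Cps1 (9367 against 7397) were higher as well, 2 of 8 hepatocyte markers. The part of these markers in the result was not tested.

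**Figure D3:**
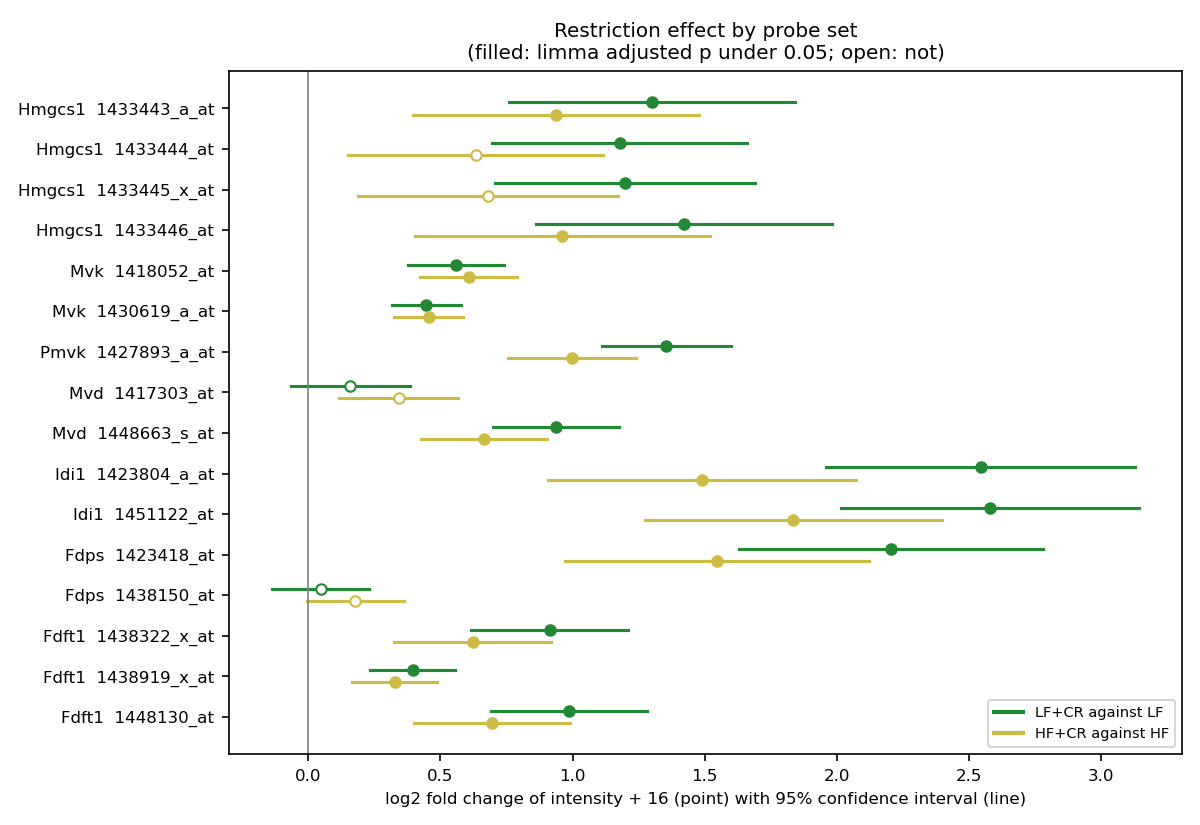
Restriction effect on each of the 16 tested probe sets on the low-fat diet (LF+CR against LF) and the high-fat diet (HF+CR against HF), as log2 fold change of intensity plus 16 with 95% confidence interval; filled points passed limma at an adjusted p under 0.05. On the low-fat diet the sets of Mvd (0.16 and 0.94), Fdps (2.21 and 0.05, the lower being the dim set) and Fdft1 (0.91, 0.99 and 0.39, the lowest being the faintest set) lie apart.

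Whether restriction acted differently on the 2 diets was tested as an interaction, the HF+CR effect minus the LF+CR effect, and 0 of the 7 genes passed, against 5.75% of all genes. At an unadjusted p under 0.05, which 23.7% of all genes reached, there was 1, Pmvk (-0.36, SE 0.16, adjusted p = 0.1954). The values were -0.74 for Idi1 (95% confidence interval -1.54 to 0.05), -0.66 for Fdps (-1.48 to 0.16) and -0.52 for Hmgcs1 (-1.22 to 0.18), so that the intervals held both no difference and a smaller effect on the high-fat diet. Leaving out HF 2 turned the interaction into a call for Idi1 (-1.15, adjusted p = 0.02278) and Fdps (-1.12, adjusted p = 0.009786). Among the cell type markers the interaction passed for Cela1 (2.33) and Alas2 (1.59), and their part in these values was not tested.

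Compared with each other, the restricted groups differed in 2 of the 7 genes (8.93% of all genes passed in either direction). Pmvk was lower in HF+CR than in LF+CR, 441 ± 67.6 against 703 ± 65.7 (log2 difference -0.66, SE 0.11, adjusted p = 0.002183), and this call held in each of 32 alternative fits. Mvk was higher in HF+CR, 207 ± 7.77 against 164 ± 14.5 (log2 difference 0.31, SE 0.09, adjusted p = 0.03437), and held in 22 of the 32. For the others the difference was small beside its interval, as for Idi1 (0.15, 95% confidence interval -0.42 to 0.71) and Mvd (0.05, -0.17 to 0.28), and Fdps was lower on all 3 HF+CR arrays without passing (-0.26, adjusted p = 0.613). In the same comparison 1 of 8 pancreatic markers was higher in HF+CR (Cela1, 1559 against 409), as were 1 of 2 red blood cell markers (Alas2, 1189 against 408) and 1 of 7 stellate cell and fibroblast markers (Reln, 1153 against 835). Of 8 hepatocyte markers Apob was higher (6698 against 3261) and Ttr lower (13972 against 15468). The part of these markers in the Pmvk and Mvk differences was not tested.

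High-fat feeding without restriction changed 0 of the 7 genes in limma (HF against LF), where 0.894% of all genes passed, and 4 members had an unadjusted p under 0.05, which 16.3% of all genes reached. Idi1 differed by 0.89 (95% confidence interval 0.33 to 1.46, adjusted p = 0.1139) and Hmgcs1 by 0.73 (0.24 to 1.23, adjusted p = 0.1356), with HF 1 and HF 3 above all LF arrays and HF 2 among them. Mvk was higher on all 3 HF arrays (0.26, adjusted p = 0.1486), Pmvk leaned the other way (-0.31, adjusted p = 0.2106), and Fdps differed by 0.40 (adjusted p = 0.4809). The count rests on HF 2: without it Idi1 (1.30, adjusted p = 0.008842), Hmgcs1 (1.00, adjusted p = 0.03805) and Fdps (0.86, adjusted p = 0.02411) passed. Mvd differed by -0.13 on 1417303_at and by 0.19 on 1448663_s_at, and neither passed. Of the cell type markers Lyve1, of endothelial cells, was higher in HF (332 against 149.7), and its part was not tested.

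Running changed 0 of the 7 genes on either diet in limma. On the low-fat diet 0.00704% of all genes passed, and on the high-fat diet 0%. In LF+Ex the mean log2 values of all 7 members were below those of LF, while 41.6% of all genes had a higher mean in LF+Ex. The arrays of Hmgcs1, Mvk, Mvd and Fdft1 overlapped those of LF, and Mvk differed by only -0.01. Of the members 2, Pmvk and Fdps, had an unadjusted p under 0.05 (3.95% of all genes). Fdps read 398 ± 18.4 against 693 ± 129.8 in LF (log2 difference -0.76, 95% confidence interval -1.34 to -0.18), Idi1 207 ± 5.06 against 307 ± 122 (-0.48, -1.04 to 0.09) and Pmvk 208 ± 9.98 against 265 ± 23.8 (-0.33, -0.57 to -0.08), each with an adjusted p of 0.9997. For these 3 genes every LF+Ex array was below every LF array, which held for 6.01% of all genes. In HF+Ex the differences from HF lay between -0.28 and 0.20, with 0 members at an unadjusted p under 0.05 (2.45% of all genes). Of the interactions of running and diet 0 passed, against 0.00704% of all genes, 1 had an unadjusted p under 0.05 (2.52% of all genes), and the widest was that of Fdps (0.96, 95% confidence interval 0.14 to 1.77, adjusted p = 0.9996).

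The running groups gave a second comparison for restriction and for diet. LF+CR was higher than LF+Ex in 6 of the 7 genes (4.16% of all genes), by up to 3.06 for Idi1 and 2.97 for Fdps (adjusted p = 3.837e-06 and 6.148e-06). HF+CR was higher than HF+Ex in 6 as well (1.4% of all genes), by 1.69 for Idi1 and 1.04 for Pmvk (adjusted p = 0.003754 and 0.0004011), with Hmgcs1 just inside (0.96, adjusted p = 0.04005, passing in 18 of 32 alternative fits). Only 3 of these 6 passed without HF+CR 2, and 2, Mvk and Pmvk, without the 4 arrays with pancreatic transcripts. LF+CR against LF+Ex shares the LF+CR arrays with LF+CR against LF, so it is no independent support for it, and the same holds on the high-fat diet. Among the markers, Alas2 was lower in LF+CR than in LF+Ex (408 against 1152), and of 8 hepatocyte markers Alb and Ttr were higher and Apob, Hnf4a and F9 lower. In HF+CR against HF+Ex Lyve1 was lower (147 against 346) and Tat and Cps1 were higher. Their part in these differences was not tested.

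HF+Ex was higher than LF+Ex in 3 of the 7 genes (1.07% of all genes). Idi1 read 621 ± 32.6 against 207 ± 5.06 (log2 difference 1.52, SE 0.27, adjusted p = 0.008105), Fdps 1057 ± 217 against 398 ± 18.4 (1.35, SE 0.27, adjusted p = 0.0181) and Mvk 141 ± 11.9 against 105 ± 6.76 (0.38, SE 0.09, adjusted p = 0.03848). The HF+Ex arrays of Idi1 lay within the range of HF, and its LF+Ex arrays were the lowest of the 18. Without the 4 arrays with pancreatic transcripts, which leave 2 arrays in each of these groups, the differences were 1.55, 1.45 and 0.27 and none of the 3 passed. Leaving out LF+Ex 1, LF+Ex 3, HF+Ex 1 or HF+Ex 3 left 1 passing. Whether this diet difference was larger in running than in resting mice is the interaction of running and diet given above. The hepatocyte gene Tat was lower in HF+Ex (2609 against 4015), and its part was not tested.

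**Figure D4:**
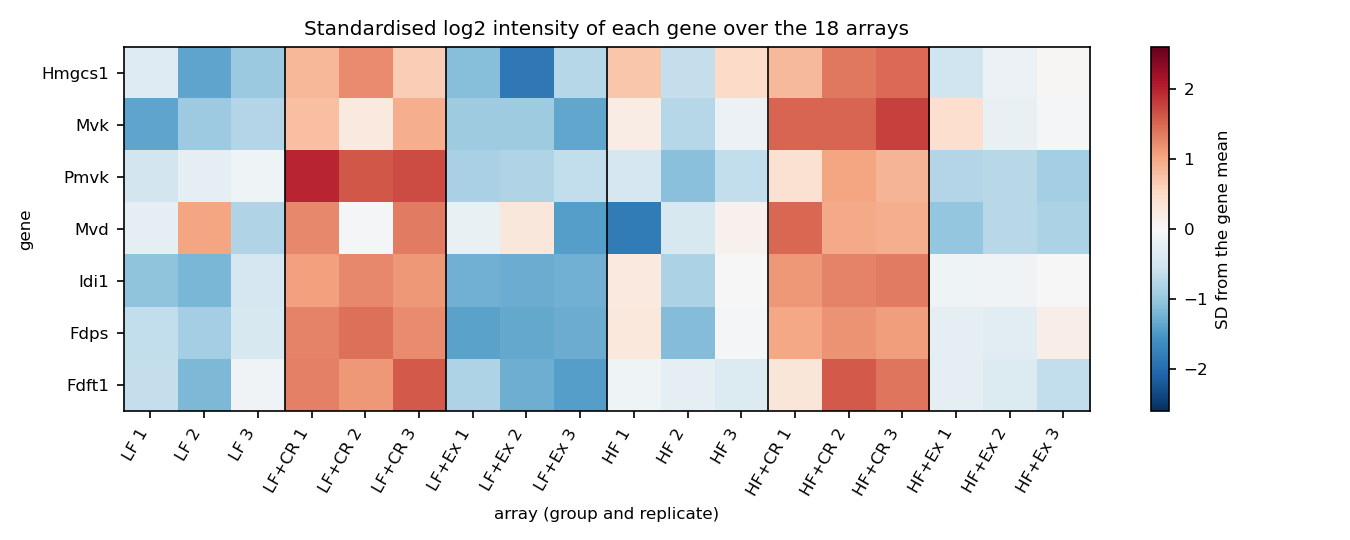
Standardised log2 intensity (SD from the mean of each gene) of the 7 genes on the 18 arrays, in groups of 3. The mean over the genes runs from 0.96 to 1.28 on the restricted arrays and from -1.16 (LF+Ex 3) to -0.09 (HF 3) on the others.

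Across the 18 arrays the 7 genes followed each other. Pearson's r of the log2 values over the 21 pairs ran from 0.33 to 0.98, with a median of 0.84, and is given as a description of arrays that share their groups. After the group means were removed the median was 0.39, with a range of -0.61 to 0.91. Idi1 and Fdps were the closest pair on both counts (0.98 and 0.91), and Mvd on 1417303_at was the least like the rest. Within HF, the array HF 2 was the lowest of 3 for 5 of the 7 genes and HF 1 the highest for 6. Within HF+CR, HF+CR 1 was the lowest for 6.

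The 10 other genes whose pattern was most like the mean of the members, by Pearson's r over the 18 arrays among all genes tested, were Nsdhl (0.98), Sqle (0.98), Sc5d (0.98), Dhcr7 (0.97), Cyp51 (0.97), Lss (0.96), Dlg4 (0.94), Erg28 (0.93), Echdc1 (0.93) and Copz1 (0.92). The first 6 encode enzymes between squalene and cholesterol. All of these arrays share the 6 groups, so that this likeness is a description with no test.

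The rest of the pathway was followed through a list of 33 genes, of which 27 were measured and 26 tested. In LF+CR 12 of the 26 rose, where 2.3% of all genes passed as higher, and 1 fell. In HF+CR 12 rose, where 3.52% of all genes passed as higher, and 0 fell. Their median difference was 0.23 on the low-fat diet and 0.25 on the high-fat diet, against -0.01 and 0.04 for all genes.

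Enzymes beyond squalene were higher too. Of 10 tested genes from squalene to cholesterol, 8 rose in LF+CR (2.3% of all genes) and 10 in HF+CR (3.52% of all genes). Sqle, the epoxidase that opens this section, read 1097, 1089 and 1100.3 in LF+CR against 153, 132 and 245 in LF (log2 difference 2.57, adjusted p = 0.0001451). Under high fat it read 862, 1253 and 1123 in HF+CR against 411, 130.4 and 356 in HF (1.92, adjusted p = 0.002425). Msmo1, the methylsterol oxidase, was also higher in HF than in LF without restriction (991 against 381, log2 difference 1.35, adjusted p = 0.01344). Tm7sf2, a sterol reductase, differed by -0.03 in LF+CR (adjusted p = 0.9538) and rose by 0.66 in HF+CR (adjusted p = 0.02108).

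Of 7 tested genes of the branches that leave at farnesyl diphosphate, which include Ggps1 (geranylgeranyl diphosphate synthase), Pdss2 (ubiquinone side chain) and Fnta and Fntb (the subunits of protein farnesyltransferase), 0 passed in limma in either restriction comparison, and 2 had an unadjusted p under 0.05 in each, where 18.6% of all genes did in LF+CR and 25.5% in HF+CR. Ggps1 differed by 0.14 in LF+CR (adjusted p = 0.339) and by 0.01 in HF+CR (adjusted p = 0.9636), and Fnta by -0.23 in LF+CR (adjusted p = 0.07015). Upstream, Acly, the ATP citrate lyase that supplies cytosolic acetyl-CoA, rose by 2.08 in LF+CR (3716 against 846, adjusted p = 1.158e-06) and by 0.93 in HF+CR (1797 against 938, adjusted p = 0.002058). Its interaction of restriction and diet passed (-1.16, adjusted p = 0.003635). Acss2, the acetyl-CoA synthetase, rose by 1.65 and 0.96, and Acat1, the mitochondrial thiolase, fell by 0.25 in LF+CR (adjusted p = 0.02657).

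Among 6 tested genes of sterol sensing and uptake, 2 rose in LF+CR (2.3% of all genes). In HF+CR, where 3.52% of all genes passed as higher, 0 passed in limma and 2 had an unadjusted p under 0.05 (25.5% of all genes). Insig1, which retains SREBP in the endoplasmic reticulum and is itself a target of it, read 656, 705 and 737 in LF+CR against 344, 343 and 474 in LF (log2 difference 0.84, adjusted p = 0.0002144). In HF+CR it read 583, 526 and 582 against 564, 514 and 546 in HF (0.06, adjusted p = 0.757), and the interaction passed (-0.78, adjusted p = 0.006447). Insig1 was already higher in HF than in LF (0.48, adjusted p = 0.04143). Srebf2, which encodes SREBP-2, rose by 0.26 in LF+CR (288 ± 8.24 against 238 ± 9.14, adjusted p = 0.01844) and differed by 0.16 in HF+CR (adjusted p = 0.1237).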

How the data were processed

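Per the labels' protocols, total RNA of the liver was taken up in Trizol and turned into biotinylated cRNA. The authors deposited 1 linear intensity for each probe set and array; the array means were nearly equal and the values were taken as already scaled, but whether and how the authors scaled them is not stated in the sources used here. Of 45101 probe sets, 64 were controls, 34945 carried 1 gene symbol, 932 several (not used) and 9160 none. A gene was represented by its probe set with the highest mean log2 of the intensity plus 16, and tested if above the 40th percentile of an array on at least 3 arrays, which left 14201 genes and removed 3992. All 7 measured members passed, and of their 18 probe sets 1441536_at (Hmgcs1) and 1438918_at (Fdft1) did not.

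With limma 3.58.1 (R 4.3.3) a linear model gave each group its mean over the 18 arrays, with residual degrees of freedom of 12 and prior ones of 3.64, and with Benjamini-Hochberg adjustment over all genes, or over all 24481 probe sets where single probe sets are tested. The steps were tested on simulated data. P-values measure the spread between these mice. LF+CR, LF+Ex and HF share the LF arrays as controls, and HF+CR and HF+Ex the HF arrays. The members and lists were chosen with earlier results of these data known. The other genes named are the members of fixed pathway and cell type lists and the 10 genes most like the members. Alternatives were other normalizations (quantile, median), offsets (1, 64), filters (none, 60th percentile), averaged probe sets, a trended robust variance, array weights, only the compared groups, a replicate block, and leaving out each array. Fits without 4 arrays with pancreatic transcripts, without 3 arrays far out on the first component, with a clock covariate (log2 Arntl minus log2 Dbp) and with the other Mvd probe set were chosen after seeing the data. The clock covariate was uneven, from -4.32 on LF+CR 3 to -0.66 on LF+Ex 3. With it Hmgcs1 passed in HF against LF, HF+CR against HF and HF+Ex against LF+Ex. Mvd then passed in HF+CR against HF and against HF+Ex, and Mvk was lost in HF+Ex against LF+Ex. For arrays, their number limits the precision: the median SE over all genes was 0.09 between 2 groups, and 0.12 for interactions. Among the members it reached 0.27 and 0.38, both for Fdps.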

Additional observations from a re-analysis of the deposited data

How the results depend on the processing

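With 3 arrays per group, a change near the median SE over all genes, 0.09, could hardly be called. Most members had a larger SE, up to 0.23 for Hmgcs1 and 0.27 for Idi1 and Fdps. For these genes larger changes could go uncalled, as did the -0.76 of Fdps in LF+Ex. Mvk and 1448663_s_at of Mvd lie near the dim threshold. The number of the 7 genes that passed was the same, or within 1.5 times, in most of the 33 alternatives for each comparison. It was 6 to 7 for LF+CR against LF and for LF+CR against LF+Ex, 4 to 7 for HF+CR against HF, and 0 in all for both running effects and their interaction. For HF against LF it was 0, with 2 under array weights, 1 with the clock covariate and 0 to 3 as each array was left out. For HF+CR against HF+Ex it was 6, with 2 without the arrays with pancreatic transcripts and 3 to 6 as each array was left out. For HF+CR against LF+CR it was 2, with 1 under quantile normalization, median centring, only the groups compared, without the arrays with pancreatic transcripts and when LF+CR 2, HF 1 and HF+Ex 3 were dropped together, and 1 to 2 as each array was left out. For HF+Ex against LF+Ex it was 3, with 0 without the arrays with pancreatic transcripts and 1 to 3 as each array was left out. The interaction of calorie restriction and diet had 0, and 0 to 2 as each array was left out. In these the cause was not tested.

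The Mvd difference of -0.13 between HF and LF, which did not pass, became 0.02953 with the mean of its probe sets, 0.0231 with array weights and 0.19 on its other probe set. Averaging the Fdps probe sets, 1 of them dim, moved its LF+CR difference from 2.21 to 1.13 and it still passed.

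With the replicate number as a block, the counts were 0 for HF against LF, 6 for LF+CR against LF, 5 for HF+CR against HF, 6 for LF+CR against LF+Ex, 5 for HF+CR against HF+Ex (Hmgcs1 lost, adjusted p = 0.05051) and 2 for HF+Ex against LF+Ex (Mvk lost, adjusted p = 0.05064), with 2 for HF+CR against LF+CR and 0 for the others. The numbers recur in each group, and the labels do not say whether they mark a pairing or a batch. Of 45 pairs of same-numbered arrays, 9 had a correlation of their deviations over 0.1 (range -0.41 to 0.33), and 2 of 18 arrays correlated best with their own number. With 3 arrays per group, these values cannot show that no batch goes with the number. Of the 4 arrays with pancreatic transcripts, LF 1, LF+CR 1 and HF+Ex 1 carry the number 1, and LF+Ex 3 does not.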

Other observations

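The array HF 2, which was low for Idi1 and Fdps, was also the lowest HF array for 8 of the 10 tested genes from squalene to cholesterol, and the highest for 1, Ebp (2602 against 2406 and 2548). Sqle read 130.4 on HF 2, against 411 and 356 on the other HF arrays and 132 to 245 in LF. Nsdhl read 298 on HF 2 against 791 and 606, and Msmo1 632 against 1228 and 1112. Insig1 read 514 on HF 2 against 564 and 546, and Clps was at 59.6 there. On the low-fat diet LF 3 was the highest of its group for 5 of the 7 mevalonate genes, and for 8 of those 10 genes, Sqle (245) and Msmo1 (561) among them. Among restricted mice HF+CR 1 was the lowest of its group for 8 of the 10, Sqle (862), Msmo1 (2063) and Nsdhl (1599) among them, as for 6 of the 7 members. Krt19, a marker of bile duct cells (cholangiocytes), read 399 on HF+CR 1 against 86.8 and 87.9 on HF+CR 2 and HF+CR 3. Summed levels of 5 cholangiocyte markers in HF+CR ran from 500 to 1034, highest on HF+CR 1, and their part was not tested. All of these are values of single mice, with no test.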
